A study of Rattus norvegicus with 10 samples.

Results

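Major histocompatibility complex (MHC) class I genes of the rat RT1 region were examined in the hypothalamus together with the genes that load their products. The members were every probe set that the array annotation assigns to RT1-CE16, RT1-S3, RT1-N2, RT1-T24-3 or RT1-T24-4 alone, and every probe set of B2m, Tap1, Tap2, Psmb8 and Psmb9. They were 10 genes of 14217 that a probe set names alone, and 15 of 31042 probe sets, 8 for the 5 RT1 genes and 7 for the 5 machinery genes. The RT1 genes had been selected because probe sets of theirs were called between the diets in these same rats, so their differences by diet are given as a description with no test. The machinery genes had not been selected on their own difference.

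The samples came from 10 male Wistar rats, an outbred stock, each measured once on an Affymetrix rat genome array. The C group (Chow 1 to 5) ate solid chow for 8 days and the P group (Powder 1 to 5) ate powdered feed for 8 days. All rats were 3 weeks old at the start, ate powder for 2 days first, and were 4 weeks old by their labels. The comparison asks how chewing solid food at weaning affects gene expression in the hypothalamus. Each rat was a separate animal, and no genotype was measured.

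MHC class I molecules carry peptides from inside the cell to its surface, where T cells and natural killer cells read them. The heavy chain is encoded in the MHC, called RT1 in the rat, and pairs with beta-2 microglobulin, the light chain encoded by B2m. Tap1 and Tap2 form the transporter that moves peptides into the endoplasmic reticulum, and Psmb8 and Psmb9 encode catalytic subunits of the immunoproteasome, which cuts proteins into such peptides. Class I heavy chains differ widely between rats of an outbred stock. In the brain, class I molecules are made by microglia, endothelium and some neurons, and they have been studied for a part in synapse remodelling.

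In the RefSeq annotation of the GRCr8 assembly, RT1-N2, RT1-S3, RT1-T24-4 and RT1-T24-3 lie in that order in one stretch of chromosome 20. No annotated gene lies between RT1-S3 and RT1-T24-4, 5 lie between RT1-N2 and RT1-S3, and 3 lie between RT1-T24-4 and RT1-T24-3. RT1-CE16 follows after 44 further genes, and Tap2, Psmb8, Tap1 and Psmb9 stand side by side 133 genes beyond it. B2m lies on chromosome 3. RT1-S3 is the counterpart of mouse H2-T23, which encodes the nonclassical molecule Qa-1.

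Promoters are shown because the RT1 genes fell into opposite patterns across rats while the values of the machinery genes were nearly flat. Most of the array was flat too, with a standard deviation below 0.001 over the 10 rats in 92.6% of probe sets. The RT1 genes were chosen on calls that need variation. Each window holds 300 bases around the annotated start, most of them before it (RefSeq, GRCr8), and all 10 member genes had one. In the first 4 windows the capitals mark matches, on either strand, to an interferon response element (GAAANNGAAA), a kappa B site (GGGGATTCCC) or a CCAAT box (CCAAT).
RT1-CE16 (chr20:3265394-3265693, minus strand): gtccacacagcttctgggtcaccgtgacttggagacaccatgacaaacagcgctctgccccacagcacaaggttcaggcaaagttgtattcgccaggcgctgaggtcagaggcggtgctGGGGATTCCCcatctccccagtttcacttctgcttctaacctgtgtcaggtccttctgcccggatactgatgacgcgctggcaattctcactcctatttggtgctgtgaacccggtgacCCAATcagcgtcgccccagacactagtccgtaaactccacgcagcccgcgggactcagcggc
RT1-S3 (chr20:2675278-2675577, plus strand): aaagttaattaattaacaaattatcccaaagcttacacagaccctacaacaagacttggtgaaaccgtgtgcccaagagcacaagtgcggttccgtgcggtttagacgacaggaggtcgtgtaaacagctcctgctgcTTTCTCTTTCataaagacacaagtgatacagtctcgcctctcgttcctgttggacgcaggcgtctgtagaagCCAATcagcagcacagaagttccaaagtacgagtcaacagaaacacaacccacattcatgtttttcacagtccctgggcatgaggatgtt
RT1-N2 (chr20:2646080-2646379, plus strand): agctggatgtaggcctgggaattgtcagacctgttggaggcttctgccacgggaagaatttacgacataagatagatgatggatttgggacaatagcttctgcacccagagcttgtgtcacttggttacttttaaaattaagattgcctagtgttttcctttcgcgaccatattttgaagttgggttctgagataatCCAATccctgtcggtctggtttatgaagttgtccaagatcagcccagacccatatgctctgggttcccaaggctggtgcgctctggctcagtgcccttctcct
B2m (chr3:129549080-129549379, plus strand): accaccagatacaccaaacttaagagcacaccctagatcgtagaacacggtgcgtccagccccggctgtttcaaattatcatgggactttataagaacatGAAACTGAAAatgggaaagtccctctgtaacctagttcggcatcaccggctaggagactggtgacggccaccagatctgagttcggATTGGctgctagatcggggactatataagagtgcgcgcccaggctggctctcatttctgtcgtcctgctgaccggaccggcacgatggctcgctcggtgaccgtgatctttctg

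The kappa B letters stood in the RT1-CE16 window, as they did in 0.114% of 33469 promoters, and in no other member window. The interferon response element stood in 1 of 5 RT1 windows, that of RT1-S3, and in 4 of 5 machinery windows, those of B2m, Tap1, Tap2 and Psmb8, against 3.92% of all promoters. The CCAAT box stood in 4 of 5 RT1 windows and 3 of 5 machinery windows, and in 37.5% of all promoters. None of these letters overlapped in the 4 windows. A match describes the letters only, and a window without one says nothing about the factor.

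RT1-T24-3 and RT1-T24-4 are shown as a pair because their values moved together and their names mark them as relatives. The capitals mark the longest run of letters shared by the windows, 17 bases, which lies before the start of RT1-T24-3 and after the start of RT1-T24-4.
RT1-T24-3 (chr20:2722875-2723174, plus strand): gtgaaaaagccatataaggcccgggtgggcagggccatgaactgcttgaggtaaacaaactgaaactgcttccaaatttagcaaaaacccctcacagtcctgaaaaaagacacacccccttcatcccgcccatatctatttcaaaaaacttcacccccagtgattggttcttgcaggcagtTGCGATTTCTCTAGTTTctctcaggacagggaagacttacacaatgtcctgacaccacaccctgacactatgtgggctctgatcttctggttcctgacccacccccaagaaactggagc
RT1-T24-4 (chr20:2689083-2689382, plus strand): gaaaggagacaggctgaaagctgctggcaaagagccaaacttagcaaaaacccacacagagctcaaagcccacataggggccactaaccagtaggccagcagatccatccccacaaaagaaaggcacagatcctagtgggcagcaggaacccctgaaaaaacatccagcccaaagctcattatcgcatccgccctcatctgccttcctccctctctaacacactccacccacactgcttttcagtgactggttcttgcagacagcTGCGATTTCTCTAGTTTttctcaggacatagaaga

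All values below are log2 signals as the authors normalized them. That normalization, factor analysis for robust microarray summarization, leaves a probe set almost flat where its probes share no common variation. Over the 10 rats 28736 probe sets (92.6%) had a standard deviation (SD) below 0.001, and 1391 (4.48%) had one above 0.1, the limit used here for a varying probe set. Correlations between arrays lay between 0.997 and 0.9991. An array has no read depth, and the number of rats limits the precision. In whole tissue, fewer cells of a type and less RNA per cell cannot be told apart.

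RT1-CE16, a class I heavy chain gene of the RT1-C/E region, read 6.72, 6.64, 6.53, 6.69 and 7.57 in Chow 1 to 5, against 7.47, 6.69, 7.65, 6.66 and 8.07 in Powder 1 to 5 (probe set 1370463_x_at). Chow 5, Powder 1, Powder 3 and Powder 5 were high and the other 6 rats low, so that the diets overlapped. No rat lay between 6.72 and 7.47. The highest rat was 2.91-fold above the lowest. The C mean was 6.83 ± 0.42 and the P mean 7.31 ± 0.62 (SD, n = 5 each), a difference of -0.48 with a standard error (SE) of 0.33, or 0.718-fold.

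RT1-S3 was measured by 4 probe sets. The brightest, 1388212_a_at, read 7.52, 7.39, 7.48, 7.73 and 8.11 in Chow 1 to 5, against 7.94, 7.45, 8.01, 7.68 and 8.32 in Powder 1 to 5. Here too Chow 5, Powder 1, Powder 3 and Powder 5 were the 4 highest, and the diets overlapped. Its C minus P difference was -0.23 (SE 0.20), or 0.852-fold. The other 3 probe sets differed by -0.21 (SE 0.18), -0.19 (SE 0.17) and -0.19 (SE 0.14). Pairwise r between the 4 probe sets ran between 0.936 and 0.982 over the 10 rats, and all 4 had the same 4 rats on top. In 1371123_x_at the margin was small, with Powder 1 at 7.38 and Chow 4, the next rat, at 7.37.

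RT1-N2 ran the other way for the same 4 rats. It read 6.78, 6.56, 6.68, 6.66 and 6.03 in Chow 1 to 5, against 6.15, 6.73, 6.24, 6.69 and 5.69 in Powder 1 to 5. Chow 5, Powder 1, Powder 3 and Powder 5 were now the 4 lowest. The C mean was 6.54 ± 0.30 and the P mean 6.30 ± 0.43 (SD, n = 5 each), a difference of 0.24 (SE 0.23), or 1.18-fold.

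RT1-T24-3 had the widest range of the members, 3.44-fold between its extreme rats. It read 8.03, 7.98, 7.98, 8.10 and 7.37 in Chow 1 to 5, against 7.45, 8.04, 7.47, 8.15 and 6.37 in Powder 1 to 5. The same 4 rats were lowest, and Powder 5 stood a further step below the other 3 of them. The C minus P difference was 0.39 (SE 0.34), or 1.31-fold.

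RT1-T24-4 read 8.34, 8.17, 8.24, 8.44 and 7.81 in Chow 1 to 5, against 7.56, 8.25, 7.95, 8.37 and 7.13 in Powder 1 to 5. Once more Chow 5, Powder 1, Powder 3 and Powder 5 were lowest and the diets overlapped. The difference was 0.35 (SE 0.25), or 1.28-fold.

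**Figure D1:**
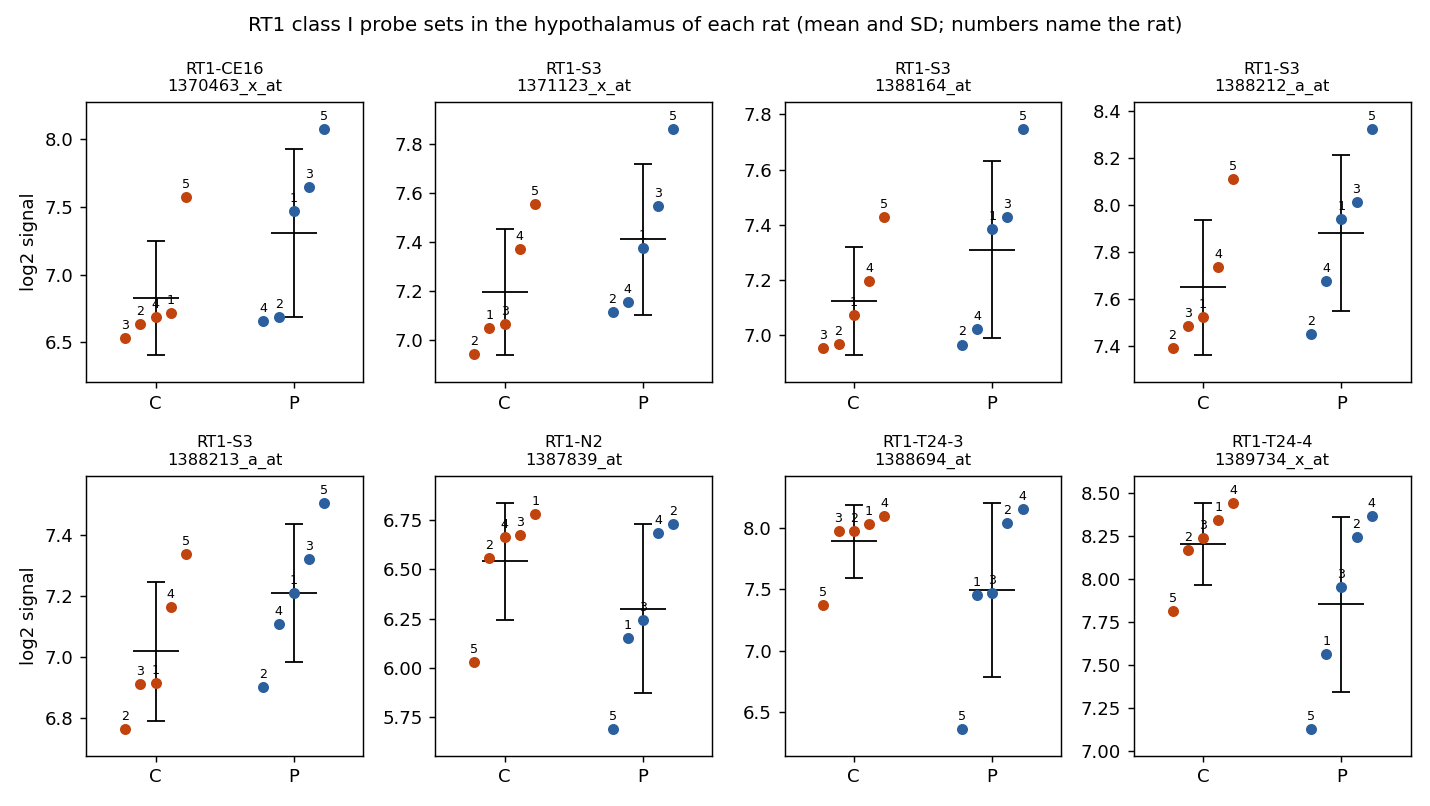
Log2 signal of the 8 RT1 class I probe sets in each rat, C group left and P group right; points are rats with their numbers, and bars give the mean and SD. Chow 5 and Powder 1, 3 and 5 are high for RT1-CE16 and RT1-S3 and low for RT1-N2, RT1-T24-3 and RT1-T24-4, and the diets overlap in all 8.

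The set of 4 rats at one end was therefore shared, but not the full order of the rats. Spearman rho over the 10 rats ran between -0.745 and -0.552 for pairs of RT1 genes on opposite sides. Chow 5, Powder 1, Powder 3 and Powder 5, 1 C rat and 3 P rats, were the 4 highest in the 5 probe sets of RT1-CE16 and RT1-S3 and the 4 lowest in the 3 probe sets of RT1-N2, RT1-T24-3 and RT1-T24-4. Powder 5 was the extreme rat in all 8. These rats were picked out by the gap in RT1-CE16, so the counts are a description. Among the 1391 varying probe sets of the array, 15 had those 4 rats highest and 16 had them lowest, 31 in all (2.23%), of which 8 were the RT1 members and 23 were not. Of these 23, 12 name a single gene and 11 name none. Crabp1, a binding protein of retinoic acid, was among those with the 4 highest, and Dnmt3a, a DNA methyltransferase, and Cxcl12, a chemokine, were among those with the 4 lowest.

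Between members, each gene represented by its brightest varying probe set, 4 pairs had a positive r after each diet was centred on its mean (0.938 to 0.956) and 6 a negative one (-0.958 to -0.78). The positive pairs were RT1-CE16 with RT1-S3, and the 3 pairs among RT1-N2, RT1-T24-3 and RT1-T24-4. These sides match the directions of the diet calls on which the genes were chosen in these same rats. The split is therefore not independent of that choice, and centring does not remove it. In these probe sets the largest gap between rats set 4 rats apart in RT1-CE16 and Powder 5 alone apart in the other 4 genes. The r values lean on those rats and share arrays and normalization, so no p is given. Within the 6 rats other than Chow 5 and Powder 1, 3 and 5, all 10 pairs had a positive uncentred r (0.2 to 0.948). Those 6 were picked by their values of RT1-CE16 and span a narrower range, so this is a description only. Without centring, RT1-S3 with RT1-T24-4 had r = -0.816 over the 10 rats and 0.948 over those 6. RT1-CE16 with RT1-T24-3 had -0.933 over 10 and 0.479 over 6, also without centring.

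**Figure D2:**
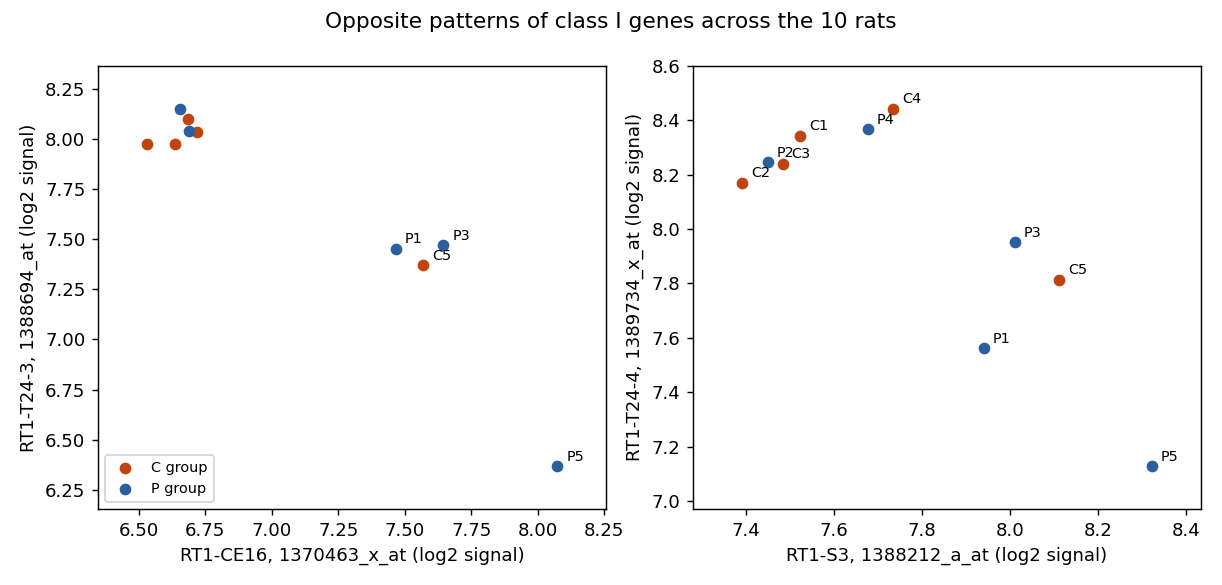
RT1-T24-3 against RT1-CE16 (left) and RT1-T24-4 against RT1-S3 (right), log2 signal, 1 point a rat; C and P mark the diet and the digit the rat, with only the separated rats named on the left. Powder 5 is highest on the horizontal axis and lowest on the vertical axis in both panels. The 4 rats named on the left are separated in RT1-CE16, and the other 6 rise together on the right (r = 0.948).

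RT1-S3 and RT1-T24-4 are neighbours on the chromosome and lay on opposite sides of this pattern. RT1-CE16, the most distant of the 5 RT1 members, lay on the side of RT1-S3. Names ending in _x_at, as for RT1-CE16, RT1-T24-4 and 1 probe set of RT1-S3, mark sets with some probes that match other sequences too. Class I genes are close relatives, so which copy a signal came from is uncertain. Whether sequence differences between the rats or such shared probes took part was not tested.

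The diets were compared by rank products over all probe sets, at a false discovery rate (FDR) below 0.05. Across the array 292 probe sets (0.941%) were called higher in C and 254 (0.818%) lower in C. Of the 8 RT1 probe sets, 3 were called higher, those of RT1-N2 (FDR 0.0155), RT1-T24-3 (FDR 0.00625) and RT1-T24-4 (FDR 0.00357), and 5 lower, that of RT1-CE16 and all 4 of RT1-S3. Since the genes were picked on such calls, these counts describe the choice. The members nearest the limit were RT1-N2 and, with FDR 0.00917, the probe set 1388164_at of RT1-S3. The last probe sets called had FDR 0.0499 (higher) and 0.0497 (lower), and the first not called 0.05 and 0.0505.

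By limma, 1100 of 31042 probe sets (3.54%) had an unadjusted p below 0.05 and 0 (0.0%) an adjusted one, and of the 8 RT1 probe sets 0 had either, a count given as a description of genes already chosen on this contrast. Without Powder 5 the difference shrank to -0.29 for RT1-CE16, between -0.08 and -0.12 for RT1-S3, 0.09 for RT1-N2, 0.11 for RT1-T24-3 and 0.17 for RT1-T24-4, and rank products called 1 RT1 probe set higher (RT1-T24-4) and 1 lower (RT1-CE16). Without Chow 1 and Chow 4, the rats highest in markers of the leptomeninges, the membranes around the brain, 0 of 3 kept the call higher and 5 of 5 the call lower. When only the 1391 varying probe sets were ranked, 0 of 8 were called.

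The genes that load class I molecules were nearly flat across the same rats. B2m, which every class I heavy chain needs, read 11.91, 11.89, 11.90, 11.91 and 11.90 in Chow 1 to 5, against 11.89, 11.90, 11.91, 11.91 and 11.89 in Powder 1 to 5 (probe set 1367595_s_at). Its C minus P difference was 0.0031 (SE 0.0049, limma adjusted p = 0.9995), and its range over the 10 rats was 0.0222. The second B2m probe set was at 9.66 in every rat.

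Both Tap1 probe sets were flat, at 6.31 in every rat and between 6.766 and 6.767. Tap2 was at 7.13, Psmb8 at 6.99 and Psmb9 at 7.19 in every rat. Over the 7 machinery probe sets the SD lay between 0.000115 and 0.00742, and in the 8 RT1 probe sets, chosen on calls that need variation, between 0.237 and 0.558. The C minus P difference was at most 0.00306 in size, with limma p between 0.253 and 0.906 and adjusted p of 0.9995 throughout. Rank products called 0 of 7, beside backgrounds of 0.941% and 0.818%. A flat value here does not tell a gene that did not change from one whose probes this normalization did not resolve.

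**Figure D3:**
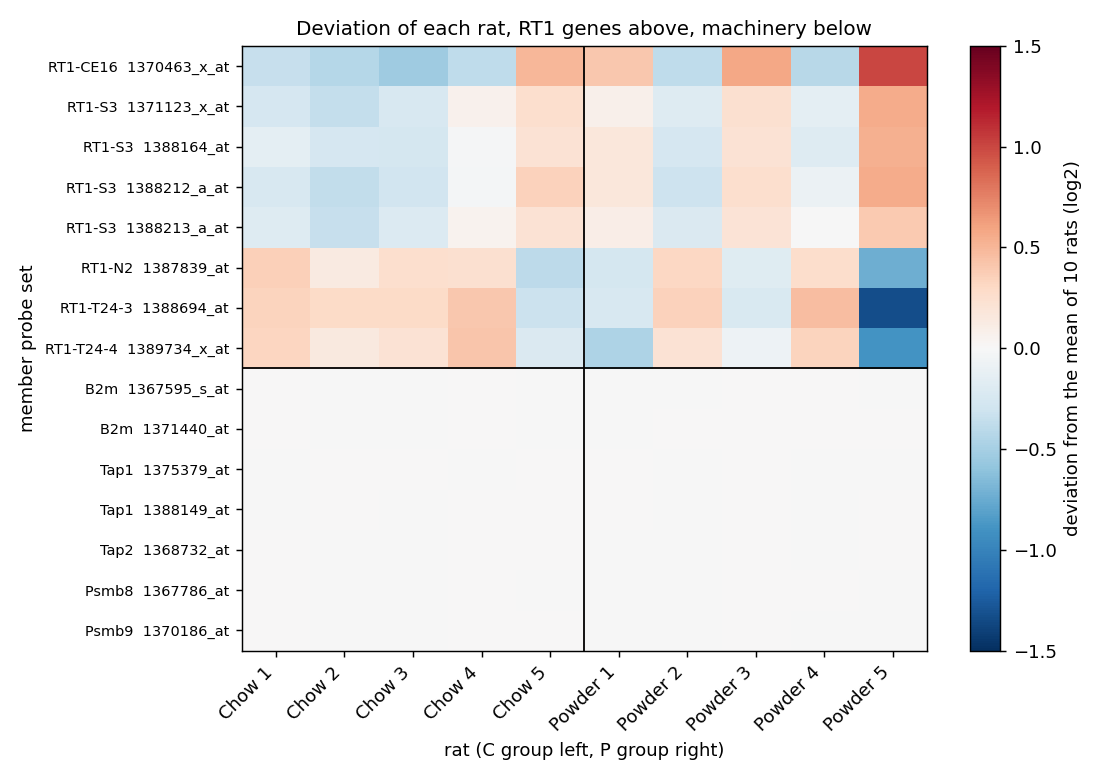
Deviation of each rat from the mean of the 10 rats (log2, colour), for the 15 member probe sets in rows and the rats in columns, C group left and P group right. The RT1 rows show Chow 5 and Powder 1, 3 and 5 against the rest, and the machinery rows stay within 0.0222 over all rats.

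No machinery probe set reached an SD of 0.1, so 0 pairs of an RT1 and a machinery gene could be compared under the rule for varying probe sets. With any SD allowed, 25 pairs were compared by an exact permutation within each diet (14400 arrangements, two-sided). Each r and rho of these pairs was taken after each diet was centred on its mean, and r lay between -0.683 and 0.781. In 5 pairs the p was below 0.05 and in 0 after Benjamini-Hochberg adjustment over the 25 pairs. The smallest p was that of RT1-T24-4 with Psmb8, r = 0.561 and rho = 0.697 (exact permutation p = 0.011, adjusted p = 0.146), and r was 0.559 without the 2 rats farthest from the median. Psmb8 itself ranged over 0.000794 in the 10 rats. RT1-S3 with Tap2 had r = 0.781 and rho = 0.818 (exact permutation p = 0.0117, adjusted p = 0.146), and r was 0.813 without 2 rats, while Tap2 itself ranged over 0.000339 in the 10 rats. RT1-S3 with B2m had r = -0.0033 (exact permutation p = 0.993).

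**Figure D4:**
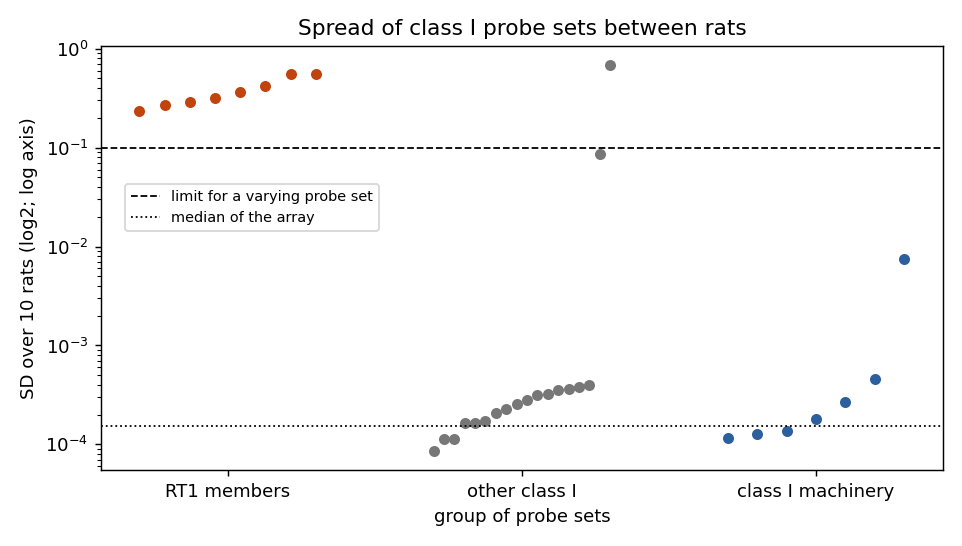
SD of each probe set over the 10 rats (log2, on a log axis) for the RT1 members, the other class I probe sets and the class I machinery; the dashed line is the limit of 0.1 and the dotted line the median of the array, 0.000155. All 8 RT1 members and 1 of 18 other class I probe sets lie above the limit, and 0 of 7 machinery probe sets do; the RT1 genes were chosen on diet calls, which a flat probe set hardly reaches, so their place above the limit follows from the choice.

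Other class I genes of RT1 were also measured. The annotation holds 18 further probe sets that name only class I genes of RT1, 12 naming a single gene (7 genes) and 6 naming several. Of these, 16 of 18 had an SD below 0.001, a state shared by 92.6% of the array, among them both single-gene probe sets of RT1-A3 and all 5 of RT1-CE5. RT1-CE12 had an SD of 0.0867 and ran between 8.32 and 8.64, with Powder 4 the lowest rat. A probe set that names 2 class I genes (1370428_x_at) varied most, at 7.60, 7.25, 8.12, 8.58 and 7.57 in Chow 1 to 5, against 7.44, 7.50, 7.63, 8.23 and 6.05 in Powder 1 to 5. Its lowest rat was again Powder 5, and Chow 4 and Powder 4 were its highest, as in RT1-T24-3 and RT1-T24-4. Unlike in those genes, Chow 2 was next to the lowest, and Chow 5 and Powder 3 stood in the middle. Rank products called this probe set higher in C by 0.45 (SE 0.43).

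**Figure D5:**
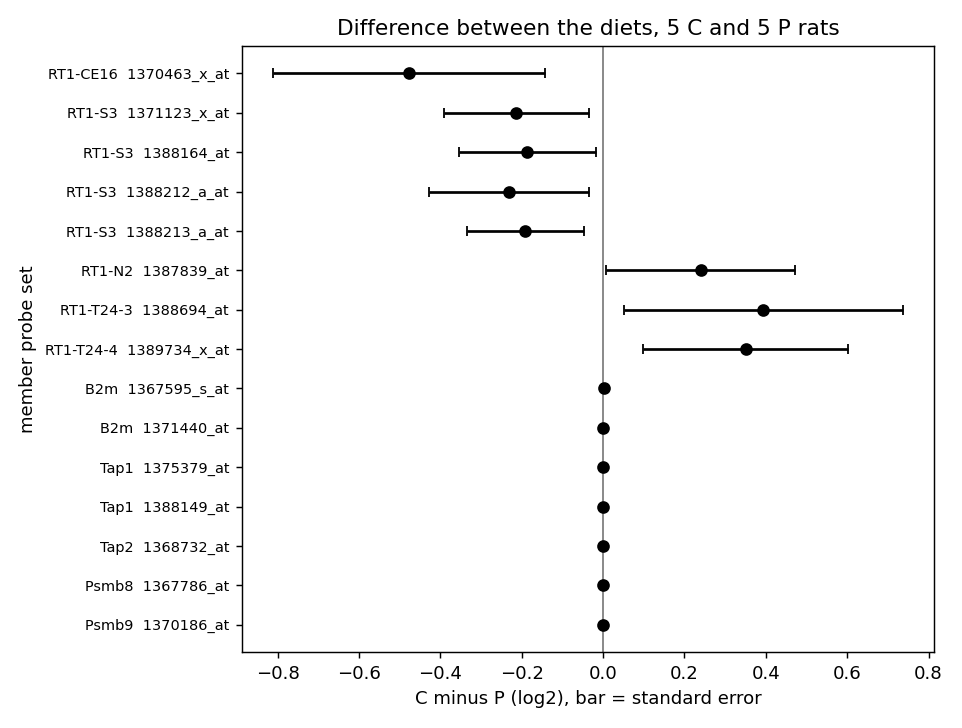
C minus P difference (log2) of the 15 member probe sets with its SE, from 5 C and 5 P rats. RT1-CE16 and RT1-S3 lie below 0, RT1-N2, RT1-T24-3 and RT1-T24-4 above, and the 7 machinery probe sets at 0 within 0.00306.

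The genes most like each RT1 member were sought by Pearson r over the 10 rats among 1015 varying probe sets that name a single gene. RT1-CE16 was closest to RT1-S3 (r = 0.968), RT1-Bb (0.869) and Crabp1 (0.83), and most opposite to RT1-N2 (-0.958), RT1-T24-3 (-0.933) and RT1-T24-4 (-0.906). Spearman rho for these genes, in the same order, was 0.903, 0.673, 0.842, -0.6, -0.661 and -0.636. RT1-S3 was closest to RT1-CE16 (0.946), with Crabp1 and RT1-Bb next (0.729 each), and most opposite to RT1-N2 (-0.919), Srsf11 (-0.877) and RT1-T24-3 (-0.874). RT1-N2 was closest to RT1-T24-3 (0.959), RT1-T24-4 (0.952) and Dnmt3a (0.889). RT1-T24-3 had Mmp15 (0.885) next after these relatives, and RT1-T24-4 had Dnmt3a (0.809).

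RT1-Bb encodes a beta chain of an MHC class II molecule, the kind that presents peptides from outside the cell. Its probe set 1371033_at read 5.97, 6.72, 5.85, 5.75 and 6.84 in Chow 1 to 5, against 6.63, 5.80, 7.13, 5.80 and 7.24 in Powder 1 to 5. Powder 5, Powder 3 and Chow 5 were highest, as in RT1-CE16, but Chow 2 was high as well. Its second probe set did not share this pattern, with Powder 5 the lowest rat at 6.33.

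Other genes of the class I pathway were taken from a list. Of 29 listed chaperones and regulators, among them the loading factor Tapbp and the regulators Irf1 and Nlrc5, 27 were matched by 48 probe sets, of which 1 was called higher and 0 lower, beside 0.941% and 0.818% over the array. The one called was Erap1, the peptidase that trims peptides in the endoplasmic reticulum. It read 8.85, 8.61, 8.72, 8.56 and 8.45 in Chow 1 to 5, against 8.12, 8.49, 8.61, 8.31 and 8.47 in Powder 1 to 5, a difference of 0.24 (SE 0.11, limma unadjusted p = 0.0525). Its lowest rats were Powder 1, Powder 4, Chow 5 and Powder 5, in that order, while Powder 3 stood among the higher ones. Erap1 therefore shared the RT1 pattern only in part. The 15 probe sets of constitutive proteasome subunits and 6 of class I related molecules outside RT1 had 0 calls in either direction.

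The counts of the next lists stand beside the same 0.941% called higher and 0.818% called lower over the array. Of 15 class II probe sets, 2 were called higher, RT1-Da by 0.30 (SE 0.31) and Cd74, the invariant chain, by 0.42 (SE 0.38), and 1 lower, RT1-Bb by -0.30 (SE 0.39). RT1-Da and Cd74 were highest in Chow 1 and Chow 4, at 7.72 and 7.74 for RT1-Da and 8.55 and 8.38 for Cd74. Of 22 probe sets of interferon-induced genes, 1 was called higher (Ifitm3, by 0.17, SE 0.15) and 1 lower (Isg15, by -0.08, SE 0.14). Of 54 probe sets of other genes in the RT1 region, 1 was called higher (Ddr1, by 0.10) and 1 lower (Gabbr1, by -0.06). Median C minus P differences were 4.51e-06 for the chaperones and regulators, 8.72e-05 for class II and -2.45e-05 for the interferon list, against -2.72e-06 over all probe sets.

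Markers of cells that carry class I molecules were set beside the members, again with 0.941% of the array called higher and 0.818% lower. Of 15 microglial probe sets 0 were called and 5 varied, with a mean level of 7.82 to 7.98 in C rats and 7.93 to 7.96 in P rats. The 17 probe sets of T and NK cell markers were all flat, at a mean level of 6.54 in both groups. Of 16 endothelial probe sets 0 were called, at 8.06 to 8.11 in C rats and 8.07 to 8.10 in P rats. All 15 leptomeningeal fibroblast probe sets were called higher, with a mean level of 8.00 to 9.35 in C rats and 7.71 to 8.93 in P rats. By limma, 0 of these 15 had an unadjusted p below 0.05, beside 3.54% of the array. By rat, that list stood 0.891 above its mean in Chow 1 and 0.723 in Chow 4. In the rats that carried the RT1 pattern it stood at -0.243 in Chow 5, -0.746 in Powder 1, 0.468 in Powder 3 and -0.209 in Powder 5. The part of these cells in the RT1 differences was not tested. For the tissue itself, 7 of 14 probe sets of hypothalamic neuron markers, Hcrt, Pmch and Oxt among them, were called lower in C, and Pmch averaged 12.87 in C rats and 13.08 in P rats. Of these 14, limma gave an unadjusted p below 0.05 in 1 and an adjusted one in 0.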

How the data were processed

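Hypothalamic RNA of 5 C rats and 5 P rats was hybridized to 1 array each. The authors used R 2.7.2 and the FARMS method (factor analysis for robust microarray summarization) to obtain 1 value per probe set. What they deposited are log2 signals, and their background correction is not given in the sources used here. They were used as deposited, between 5.23 and 13.96, and 0 columns were left unmapped. Hybridization controls, 57 of 31099 probe sets, did not enter. The platform annotation names 1 gene for 20826 probe sets, several for 436 and none for 9780. All 15 member gene identifiers were in RefSeq.

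Rank products (Python 3.11.15, numpy 2.4.6, pandas 2.3.3) ranked the C minus P differences of 25 pairs of rats against 100 permutations. Limma 3.58.1 in R 4.3.3 gave the adjusted p over 31042 probe sets. Each SE is that of the diet difference, from the residual variance of the probe set alone. The limma p also draws on the variance of the other probe sets. Both were tested on simulated data. Correlations used scipy 1.17.1 and figures matplotlib 3.10.9.

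The members and 13 gene lists (201 entries, 178 matched) were chosen with earlier results of these data known. Named genes were the members, up to 4 called genes with the largest differences in each list and, for each RT1 gene, the 3 genes with the highest and the 3 with the lowest r. Other genes named were chosen after their values were seen. Alternatives were limma, a replicate block, other normalizations, filters and FDR limits, and rats left out.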

Additional observations from a re-analysis of the deposited data

Results flagged for a closer look

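Among 30 groups of 5 rats (15 member probe sets in each diet), 2 held a rat that stood far from the other 4; chance alone gives about 1 in 20. RT1-CE16 was 7.57 in Chow 5, while the other C rats lay between 6.53 and 6.72, a gap of 0.819 of the group's range. RT1-T24-3 was 7.37 in Chow 5, while the other C rats lay between 7.98 and 8.10, a gap of 0.83 of the range. It is the same rat in both, high for one gene and low for the other, and the C minus P difference of RT1-CE16 without it was -0.66.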

How the results depend on the processing

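The RT1 calls depended on the method. The 3 probe sets called higher in C and the 5 called lower became 0 and 0 by limma at an unadjusted p below 0.05, by limma at an adjusted p below 0.05, and when only probe sets with an SD above 0.1 were ranked. With the replicate block the limma counts were also 0 and 0. The unadjusted limma p of the RT1 probe sets lay between 0.052 and 0.16 with the block and between 0.175 and 0.313 without. These p values describe genes already chosen on this contrast. Deviations of same-numbered rats correlated between -0.325 and 0.279, and the labels do not say whether the numbers pair the rats. Without Chow 1 and Chow 4 the count higher was 0. With only probe sets above the median mean ranked, the count lower was 1, since that filter removes dimmer probe sets. Leaving out 1 rat at a time gave 1 to 3 called higher and 1 to 5 called lower, the lowest without Powder 5 in both directions. RT1-N2 also lost its call without Chow 1, and the probe set 1388164_at of RT1-S3 without Powder 1 or Powder 3. Machinery calls were 0 under each alternative that ranked those probe sets, and the SD limit of 0.1 leaves them out. Probe sets this flat hardly reach a call by rank products, so those counts were close to fixed in advance. The count of pairs was 0 by construction wherever that limit was kept, since no machinery probe set passed it, and 0 of 25 after adjustment with any SD allowed. No called difference changed sign. Quantile normalization, median centring and an FDR below 0.01 left the counts within 1.5 times.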

Other observations

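By Pearson r, the closest probe sets with no gene name followed the RT1 pattern as closely as the named ones. Among 351 varying probe sets without a name, 1376960_at had r = 0.986 with RT1-CE16 over the 10 rats. For 1383449_at r was 0.982, for 1397859_x_at 0.971 and for 1396713_at -0.946. Spearman rho with RT1-CE16 was 0.867, 0.648, 0.685 and -0.976 in the same order. The probe set 1383449_at read 5.98, 6.05, 6.12, 6.07 and 6.94 in Chow 1 to 5, against 7.05, 6.11, 6.97, 6.13 and 7.65 in Powder 1 to 5. Its SD of 0.592 was above that of every RT1 member, and no rat lay between 6.13 and 6.94.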
